A study of Mus musculus with 16 samples.

Results

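Cadherins and protocadherins are cell-surface adhesion proteins with calcium-binding extracellular repeats. The genes described here are those whose symbol starts with Pcdh, or with Cdh and a digit, and that had at least 200 unique molecular identifiers (UMIs, 1 per captured RNA molecule) over the nuclei of all libraries. Of 92 such genes in the files, 87 reached that minimum. They comprise 31 genes outside the protocadherin clusters (5 classical type I, 13 classical type II and 2 other cadherins, 4 delta-1, 5 delta-2 and 2 other protocadherins) and 56 clustered protocadherins (14 alpha, 21 beta and 21 gamma). Measured UMIs chose the members, so their total level is a description. Just inside the minimum were Pcdhac1 with 281 UMIs and Pcdhga4 with 379, and just outside were Cdh26 with 145 and Cdh16 with 60. The other 3 below it were Pcdhb1 with 59, Cdh17 with 58 and Pcdh12 with 55.

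Nuclei from the hippocampus of female mice, 9 months old, were sequenced in 16 libraries. Each group had 4 libraries: Ch25h+/+ mice without tau (Tau-) and with it (Tau+), and Ch25h-/- mice, likewise Tau- or Tau+. Ch25h encodes cholesterol 25-hydroxylase, which makes an oxysterol from cholesterol. The labels name neither the tau line nor its promoter, nor the deleted part of Ch25h, and every mouse was female. RNA of nuclei was read from the 3' end of transcripts, so a gene is compared here across classes and groups, and not with another gene.

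Classical cadherins bind the same or related cadherins on the facing cell, and through catenins they hold the actin cytoskeleton. Type II cadherins are expressed in different combinations by different neuron types and are known for roles in layer-specific connections of the hippocampus. Delta protocadherins signal through short conserved cytoplasmic motifs, and clustered protocadherins give each neuron a surface identity by choice among many variable first exons.

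The 16 libraries held 51270831 to 84870650 UMIs, and 147873 barcodes passed the filters for nuclei. Members made up 0.850% of all UMIs in those nuclei, 0.720 to 0.937% by library. Ch25h had 10 to 39 UMIs per library over nuclei, at 0.173 to 0.738 counts per 1000000 (CPM) in libraries labelled Ch25h+/+ and 0.214 to 0.547 in those labelled Ch25h-/-, so the 2 ranges overlapped and RNA did not check that label. Gm43049, a gene singled out after its values were seen, read 67.4 to 87.0 CPM in Tau+ and 0.0177 to 0.202 CPM in Tau- libraries. In each of 9 classes the first principal component of the deviations from group means, 21.4 to 32.4% of their variance, parted replicates 1 and 2 of every group from replicates 3 and 4. Replicate numbers here follow accession order and only name the libraries; they pair none across groups. The labels give no batch, and each group has 2 libraries of each kind. The 2 kinds also differed in the median UMIs of background barcodes, those ranked far below the nuclei. It was 89 to 136 in replicates 1 and 2 and 66 to 82 in replicates 3 and 4, and its part in the split was not tested. Fits below that part replicates 1 and 2 from 3 and 4 rest on a grouping seen in these same counts. The libraries of any pair shared 10 to 40 barcodes, at most 0.465% of a library.

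The 4 delta-1 protocadherins held 54.7% of the members' UMIs and type II cadherins held 26.6%. Pcdh9 alone had 3686875 of 7848715 member UMIs, and the 4 members with most UMIs held 64.0%. The clustered genes, 56 of the 87 members, held few of them (0.307% alpha, 0.802% beta and 0.718% gamma). These are shares of counted UMIs. Alpha genes share 3' exons with each other, as do gamma genes, so their shares may leave out part of their RNA. The median annotated length of the members was 105 kb, against 12.3 kb over all annotated genes in the files, and nuclear RNA includes unspliced transcripts. Of the 87 members, 24 were shorter than that median of all genes: the 21 beta genes, Pcdh8, Pcdh20 and Cdh24. Whether intronic reads were counted is not stated in the labels or headers.

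Levels by class are means over libraries of UMIs summed per library and class, as CPM. Classes were named from listed marker genes, without any gene of the family among the genes used for clustering. The 9 classes with 3820 to 22858 nuclei each, measured in every library, were microglia, astrocytes, oligodendrocytes and their precursor cells (OPCs), inhibitory neurons, dentate gyrus (DG) granule neurons, CA1 and CA3 pyramidal neurons, and other excitatory neurons. The 6 smaller classes had too few nuclei in some libraries, so for them the UMIs of all libraries were pooled. Each nucleus is in 1 class, but the classes come from the same libraries and were formed by clustering on expression, so no test of one class against another was made. For 7 of 87 members every library's level in the highest of the 9 classes was above every library's level in the second. They were Pcdh9, Pcdh15, Pcdh11x, Cdh6, Cdh8, Cdh9 and Cdh23. None of the clustered genes, which held few UMIs, was among them. The same share over all genes is not given here, so this count is a description and no measure of specificity.

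**Figure D1:**
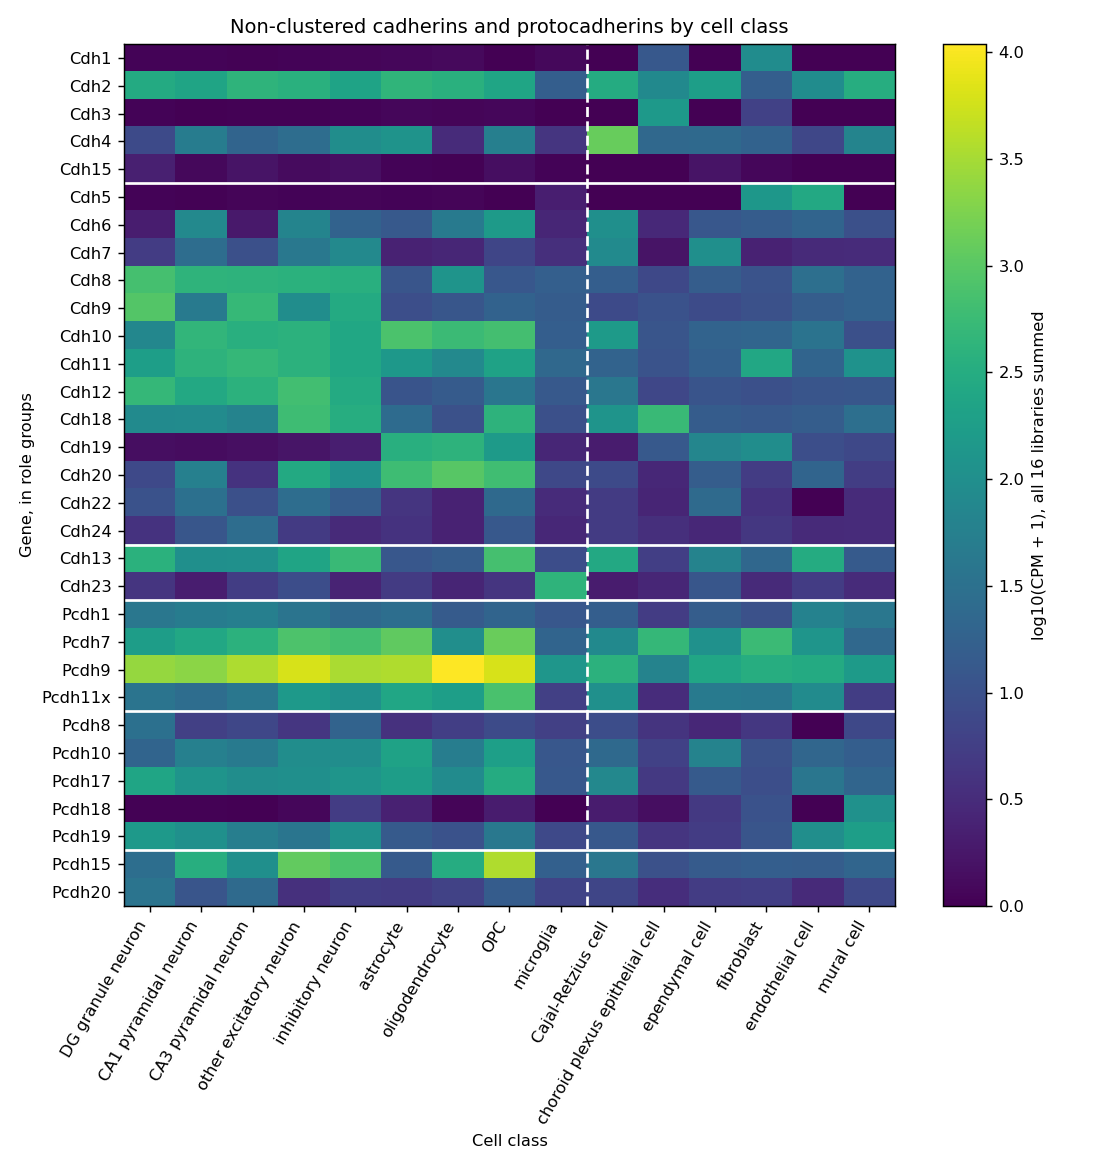
Level of the 31 non-clustered members (rows, in role groups parted by white lines) in 15 named classes (columns) as log10(CPM + 1) of the UMIs summed over all 16 libraries. The dashed line parts the 9 tested classes from the 6 small ones. Pcdh9 is the brightest row, at 10936 CPM in oligodendrocytes, and Cdh23 and Cdh3 are each bright in a single class.

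Among type I cadherins, Cdh2 (N-cadherin, the main adhesion molecule of neural tissue) had UMIs in every named class, but free RNA, shed into the suspension and caught in any droplet, could account for all of them in microglia and fibroblasts. That share was 45.6% in endothelial cells, 24.9% in choroid plexus epithelium and at most 15.1% in the other classes. Cdh2 read 422 ± 38.0 CPM in CA3 neurons, 428 ± 40.8 in astrocytes and 15.8 ± 7.36 in microglia (SD, n = 16 libraries). Cdh4 (R-cadherin) was far higher in Cajal-Retzius cells, at 1266 CPM pooled, than in the second class, astrocytes, at 116 CPM pooled. Cdh3 (P-cadherin) reached 149 CPM pooled in choroid plexus epithelium and at most 4.96 CPM in any other class. Cdh1 (E-cadherin) read 91.3 CPM pooled in fibroblasts, most of it in a cluster of 543 nuclei led by Slc47a1 and Bnc2, at 349 CPM there and 20.97 in the other fibroblast cluster. The same 543 nuclei had 2528 CPM of Pcdh7 against 33.4 in the other fibroblast cluster. Cdh15 had its highest level in DG granule neurons, at 1.30 ± 0.397 CPM.

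Type II cadherins differed between the hippocampal fields. Cdh9, a type II cadherin known from mossy fibre synapses, had 900.2 ± 81.0 CPM in DG granule neurons, 506 ± 57.9 in CA3 and 45.7 ± 18.05 in CA1 neurons (n = 16). Its lowest DG library, at 745 CPM, was above its highest CA3 library, at 589 CPM. Within the CA3 class the level varied by cluster. It ranged from 643 CPM in the largest, led by Iyd and Nectin3, to 35.8 CPM in a cluster of 754 nuclei led by Lrp2 and Amigo2. Of the 10 listed CA3 markers, 7 were 2-fold up in the largest and 4 in that cluster. The class may therefore hold more than 1 kind of neuron. Another of its clusters was led by Csf2rb2, with Calb2 among its top genes and 7 of the 10 markers 2-fold up. All levels given for CA3 neurons come from UMIs summed over the clusters of the class. Cdh24 was highest in CA3 neurons, at 26.7 ± 6.39 CPM, with 11.1 ± 2.25 in CA1 and 2.83 ± 0.728 in DG neurons. Cdh6 went the other way, with 78.1 ± 13.7 CPM in CA1 against 0.883 ± 0.483 in CA3 and 1.17 ± 0.651 in DG neurons, and it was highest in OPCs at 161 ± 22.4. Cdh8 was highest in DG neurons at 710.1 ± 51.2 CPM, with 425 ± 19.9 in CA1. Cdh22 was highest in CA1 at 29.4 ± 4.35 CPM, with 27.0 ± 4.54 in other excitatory neurons, and the ranges over libraries overlapped. Cdh12 and Cdh18 were highest of the 9 classes in other excitatory neurons, at 633 ± 74.4 and 605 ± 73.6 CPM. In a cluster of 422 of those nuclei, led by Col24a1 and Arhgap6, Cdh18 read 3328 CPM. Cdh18 also read 538 CPM pooled in choroid plexus epithelium.

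Of the other type II cadherins, Cdh19, Cdh20, Cdh10 and Cdh5 were highest in glia or vessels. Among the 9 classes, Cdh19 read 417 ± 82.5 CPM in oligodendrocytes, 353 ± 74.5 in astrocytes, 154 ± 23.7 in OPCs and at most 2.22 CPM in the others. Cdh20 read 958 ± 86.5 CPM in oligodendrocytes, 631 ± 80.6 in OPCs and 2.83 ± 1.13 in CA3 neurons. Cdh10 was highest in astrocytes at 791 ± 47.7 CPM. Cdh5 (VE-cadherin, which seals endothelial junctions) read 273 CPM pooled in endothelial cells, from 131 UMIs, and 134 CPM in fibroblasts, and at most 1.29 CPM in the 9 tested classes. Cdh7 was highest in ependymal cells at 103 CPM pooled and, among the 9 classes, in inhibitory neurons at 79.5 ± 16.6. Cdh11, also known from bone and connective tissue, was highest in CA3 neurons at 486 ± 21.8 CPM.

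Pcdh9, Pcdh11x, Pcdh7 and Pcdh15 were highest in the oligodendrocyte lineage. Pcdh9 had 11153 ± 2079 CPM in oligodendrocytes, 6237 ± 469.8 in other excitatory neurons, 6152 ± 462 in OPCs and 133 ± 41.9 in microglia, where free RNA could account for all of it. Pcdh15, a protocadherin best known from the tip links of hair cells, had 3653 ± 236 CPM in OPCs, 1197 ± 191 in other excitatory neurons and 319 ± 58.9 in oligodendrocytes. Pcdh11x, an X-linked delta-1 gene, had 760.4 ± 121 CPM in OPCs and 251 ± 41.1 in astrocytes. Pcdh7 was highest in OPCs at 1303 ± 130.3 CPM and read 1121 ± 92.5 in astrocytes, and the ranges over libraries overlapped. Pcdh1, the other delta-1 gene, had at most 55.0 CPM in the 9 classes and was highest in CA3 neurons. Among delta-2 genes, Pcdh17 was highest in OPCs at 306 ± 23.1 CPM and Pcdh10 in astrocytes at 207 ± 31.0, with 190.0 ± 14.4 in OPCs. Pcdh18 read 111 CPM pooled in mural cells and at most 4.22 CPM in the 9 classes. Pcdh19 read 181 CPM pooled in mural cells and 146 ± 20.7 in DG neurons. Pcdh8 and Pcdh20, both short genes, were highest in DG neurons, at 29.9 ± 4.87 and 34.5 ± 5.34 CPM.

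Cdh13 (T-cadherin, which is held by a lipid anchor and lacks a cytoplasmic tail) had 698 ± 43.3 CPM in OPCs, 537 ± 61.2 in inhibitory neurons and 368 ± 55.8 in DG neurons. It also read 304 CPM pooled in endothelial cells. Cdh23, a partner of Pcdh15 in hair-cell tip links, had 458 ± 116 CPM in microglia and at most 8.16 CPM in the other 8 classes. Cdh23 lies on chromosome 10 from 60302748 to 60696490 on the minus strand (GRCm38), and Vsir, an immune checkpoint gene, overlaps it on the plus strand. Vsir had 408 ± 103 CPM in microglia and at most 9.22 CPM in the other 8 classes. The labels and headers do not say that counting used the strand, so it is not known whether reads of one gene were counted for the other. Their counts differed in some classes, at 1460 UMIs of Cdh23 and 188 of Vsir in other excitatory neurons. In OPCs Cdh23 had 38 UMIs and Vsir 108. Of the 31 non-clustered members, 18 overlap a gene on the other strand in the annotation.

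The promoters of 4 members that are described by class or group are shown for the letters near their starts. They run from 250 bases before to 50 after the start given by RefSeq (GRCm38.p6), and they belong to Pcdh7, whose level differed between groups below, and to Pcdh15, Cdh9 and Cdh24, the OPC, granule neuron and CA3 members. Capitals mark, on either strand, the TATA box word TATAAA, the CCAAT box word, the GC box word GGGCGG, the E box word CAGCTG, or the Sox core word ACAAAG.
Pcdh7, chr5:57717831-57718130, plus strand: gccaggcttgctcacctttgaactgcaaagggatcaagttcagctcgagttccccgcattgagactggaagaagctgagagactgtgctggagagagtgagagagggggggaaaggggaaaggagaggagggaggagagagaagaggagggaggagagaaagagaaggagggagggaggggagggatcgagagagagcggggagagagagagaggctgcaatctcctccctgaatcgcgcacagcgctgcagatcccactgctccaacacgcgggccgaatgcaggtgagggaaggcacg
Pcdh15, chr10:73821617-73821916, plus strand: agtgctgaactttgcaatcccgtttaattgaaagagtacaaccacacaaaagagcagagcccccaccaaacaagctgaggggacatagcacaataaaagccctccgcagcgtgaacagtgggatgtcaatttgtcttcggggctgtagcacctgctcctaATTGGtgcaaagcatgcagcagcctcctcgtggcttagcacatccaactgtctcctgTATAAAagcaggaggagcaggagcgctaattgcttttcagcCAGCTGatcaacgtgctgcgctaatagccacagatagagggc
Cdh9, chr15:16728665-16728964, plus strand: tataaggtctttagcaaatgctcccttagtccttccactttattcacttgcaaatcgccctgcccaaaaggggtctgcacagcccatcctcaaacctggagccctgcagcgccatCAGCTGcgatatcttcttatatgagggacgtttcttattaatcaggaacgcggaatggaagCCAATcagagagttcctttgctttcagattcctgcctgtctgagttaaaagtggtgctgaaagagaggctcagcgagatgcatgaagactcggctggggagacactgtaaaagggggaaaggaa
Cdh24, chr14:54641315-54641614, minus strand: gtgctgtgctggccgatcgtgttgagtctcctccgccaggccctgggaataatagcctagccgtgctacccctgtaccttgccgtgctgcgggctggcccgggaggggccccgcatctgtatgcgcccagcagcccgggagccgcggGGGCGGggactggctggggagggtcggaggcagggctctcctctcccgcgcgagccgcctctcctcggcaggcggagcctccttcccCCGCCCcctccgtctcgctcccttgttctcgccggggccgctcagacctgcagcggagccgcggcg
The Pcdh7 promoter has 59.3% G and C and holds none of these words. Pcdh15 has a TATA box, a CCAAT box and an E box word, Cdh9 a CCAAT box and an E box word, and Cdh24 has the GC box word at 2 places and 73.3% G and C. The Pcdh15 window lies inside the annotated gene.

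RefSeq promoters matched 21 of the 87 members. CCAAT, read on both strands, was in 14 of these 21 (66.7%) and in 37.9% of the promoters of all 27025 genes in the table. GGGCGG was in 9 (42.9%, all genes 35.9%), TATAAA in 2 (9.52%, all genes 14.2%), CAGCTG in 3 (14.3%, all genes 16.1%) and ACAAAG in 3 (14.3%, all genes 18.7%). Median G and C content was 60.3% in members and 52.7% in all genes. A match is a description of letters and not a site of binding.

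The 3 clustered families differed by class. Genes of a family share their 3' exons in the annotation: 38.0 to 54.9% of an alpha gene's exon bases, and 27.8 to 66.8% of a gamma gene's, also belong to another member, against 0 to 9.67% of a beta gene's. A 3' read can therefore not always be given to one alpha or gamma gene, so single genes of those families are uncertain and the sums are reported first. The labels and headers do not say how reads in shared exons were counted. The alpha and gamma sums may therefore leave out part of a family's RNA. The 14 alpha genes summed to 23.7 ± 2.40 CPM in CA3, 26.1 ± 1.90 in DG, 27.7 ± 2.91 in CA1, 34.5 ± 4.06 in inhibitory and 35.2 ± 3.12 in other excitatory neurons (n = 16). They summed to 40.1 ± 10.96 CPM in OPCs, but to 2.41 ± 1.01 in astrocytes, 4.04 ± 2.07 in oligodendrocytes and 1.43 ± 1.74 in microglia. No library of those 3 classes reached the lowest library of the tested neuron classes, at 20.7 CPM. Free RNA could account for all of the astrocyte UMIs of the median alpha gene (13 genes with an estimate) and 61.6% of the oligodendrocyte UMIs (14 genes), against 4.64% in CA1 neurons. In microglia that share was 81.7% for the median alpha gene (6 genes with an estimate).

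Gamma genes were present in all 9 classes. Their sum ranged from 37.3 ± 3.71 CPM in CA3 neurons to 119 ± 13.3 in astrocytes, with 112 ± 14.6 in OPCs and 69.1 ± 13.1 in microglia. Beta genes, mostly single-exon genes, ranged from 14.1 ± 5.77 CPM in microglia to 145 ± 22.8 in OPCs, with 108 ± 9.67 in inhibitory neurons and 105 ± 17.2 in astrocytes. In microglia, free RNA could account for 99.2% of the UMIs of the median beta gene (18 genes with an estimate) and 10.5% of those of the median gamma gene (21 genes). Within beta, Pcdhb9 and Pcdhb2 were highest in OPCs, at 24.5 ± 6.35 and 15.8 ± 6.68 CPM, against at most 7.97 and 3.19 CPM in the other 8 classes. Pcdhb14 was highest in astrocytes at 24.3 ± 5.96 CPM, with 14.4 ± 2.88 in inhibitory neurons. Pcdhb17 read 13.2 ± 2.81 CPM in inhibitory neurons and Pcdhb16 12.8 ± 1.69. Among gamma genes with a C-type first exon, Pcdhgc3 read 9.40 ± 3.40 CPM in astrocytes, 7.82 ± 2.93 in OPCs and 0.538 ± 0.210 in CA1 neurons, and Pcdhgc4 read 13.6 ± 2.93 CPM in astrocytes and 2.86 ± 0.617 in CA1 neurons. Pcdhga12, Pcdhgc5 and Pcdhga9 had most gamma UMIs; of the 9 classes the first 2 were highest in astrocytes, at 18.6 ± 3.59 and 8.06 ± 1.78 CPM, and Pcdhga9 in OPCs at 7.74 ± 3.13. Of alpha genes, Pcdha11 (ENSMUSG00000102206) read 13.05 ± 3.89 CPM in OPCs and 9.40 ± 1.51 in other excitatory neurons. Pcdha5 read 5.48 ± 0.897 and Pcdha4 3.24 ± 0.859 CPM in other excitatory neurons. Pcdha1 was highest in inhibitory neurons at 3.13 ± 0.846 CPM.

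**Figure D2:**
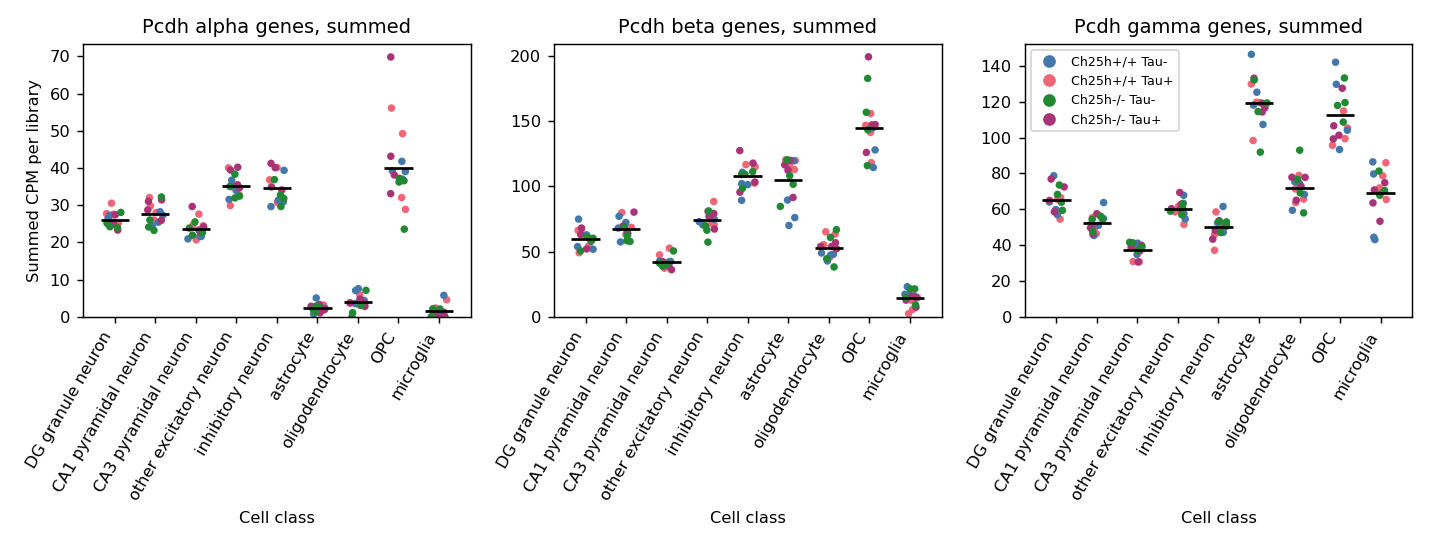
Summed CPM of the alpha, beta and gamma protocadherin genes (y axis, linear) by class (x axis). Each point is 1 of 16 libraries, coloured by group, and the bar is the mean. Alpha sums lie at or above 20.7 CPM in the tested neuron classes and at or below 7.55 CPM in astrocytes, oligodendrocytes and microglia. Gamma genes are present in all 9 classes.

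The first comparison asked what tau changed. Genes were tested in each class with edgeR's quasi-likelihood test on counts summed per library, and were called at an adjusted p under 0.05, where p-values were adjusted by Benjamini-Hochberg over all genes of a class and contrast. After the filter on low counts, 79 of 87 members were tested in at least 1 class, in 461 member-by-class tests. The 8 others were not tested in any class. In Ch25h+/+ mice no member was called for Tau+ against Tau- (background over all genes 0.204%). Backgrounds here and below pool the 9 classes unless a class is named. DESeq2 called 1 (background by DESeq2 0.376%), Cdh23 in microglia. At an unadjusted p under 0.05 there were 32 of the 461 tests (6.94%, background 6.58%), 16 higher and 16 lower in Tau+. In mice labelled Ch25h-/- 2 of 461 were called (0.434%, background 0.108%), and 44 (9.54%, background 8.21%) passed the unadjusted p, 14 higher and 30 lower. Over all genes 4964 tests were higher and 4801 lower at that p. DESeq2 called 4 of the 445 member tests to which it gave an adjusted p in this contrast (0.899%, background by DESeq2 0.62%): Pcdh7 and Pcdh15 in CA1 neurons, Cdh4 in DG neurons and Pcdh11x in OPCs.

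The 2 calls were Pcdh7 in CA1 pyramidal neurons and Pcdh11x in OPCs, both lower in Tau+. In CA1 neurons 19 of 15464 genes were called for this contrast (0.123%), and in OPCs 9 of 9415 (0.0956%). Pcdh7 (ENSMUSG00000029108, chromosome 5, 57717967 to 58133230) encodes a delta-1 protocadherin. Its level in CA1 neurons of Ch25h-/- Tau- mice was 326, 277, 446 and 422 CPM, and in Ch25h-/- Tau+ mice 199.8, 164, 222 and 223 CPM. All 4 Tau+ libraries lay below all 4 Tau- libraries. The log2 fold change was -0.83 (SE 0.14, adjusted p = 0.0338, edgeR). In Ch25h+/+ mice the levels were 217, 321, 282 and 242 CPM without and 260.0, 231, 198 and 233 CPM with tau, and these ranges overlapped. The test of the difference between the 2 tau effects gave log2 -0.59 (SE 0.20, adjusted p = 0.905), so the effects are not shown to differ.

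The CA1 class is 3 clusters, and their shares moved with the group. Of the 8 listed CA1 markers, 8 were 2-fold up in the largest, 3 in the one with most Pcdh7 and 4 in the third. The CA1 name of the smaller clusters therefore rests on fewer markers. The largest, led by Fibcd1 and Gm2115 among its top genes, made up 41.4, 51.1, 69.3 and 69.7% of CA1 nuclei in Ch25h-/- Tau- libraries and 71.2 to 76.4% in Ch25h-/- Tau+. The cluster with most Pcdh7 was 8.92 to 20.7% of CA1 nuclei in the first group and 3.47 to 6.43% in the second. Of its barcodes 39.9% were called as doublets and left out, and with doublets kept the Pcdh7 log2 fold change in CA1 was -0.71 (adjusted p = 0.0556, edgeR). Replicates 3 and 4 of Ch25h-/- Tau- were the 2 with the smallest share of the largest cluster, and also the 2 with most Pcdh7. Markers of other excitatory neurons (17 of them, none at 0) summed to 1382 to 1926 CPM in CA1 nuclei of Ch25h-/- Tau- and to 1189 to 1339 CPM in Ch25h-/- Tau+ libraries. Sums of the other lists overlapped between these groups. They were 941 to 1241 and 1107 to 1158 CPM for CA1 markers. For CA3 markers they were 277 to 352 and 298 to 304 CPM, and for DG markers 234 to 283 and 221 to 243 CPM. Their part in the result was not tested. Within the largest cluster the Pcdh7 mean was 285 ± 104 CPM without and 185 ± 34.1 with tau (n = 4), and the log2 fold change was -0.61 (SE 0.19, adjusted p = 0.602, edgeR). The groups then overlapped, at 197 to 428 against 136 to 213 CPM, and the call was lost there. In the other clusters the groups did not overlap. The cluster with most Pcdh7 read 644 to 1060 against 161 to 393 CPM, from 25 to 66 nuclei per Ch25h-/- Tau+ library. The third read 317 to 385 against 201 to 233 CPM. Fewer CA1 nuclei of one kind and less RNA per nucleus cannot be told apart in the class sums.

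Pcdh15 was, like Pcdh7, highest in replicates 3 and 4 of Ch25h-/- Tau- in CA1 neurons, while among Ch25h-/- Tau+ libraries Pcdh15 was lowest in replicate 3 and Pcdh7 in replicate 2. Pcdh15 read 398, 308, 682 and 719.9 CPM in Ch25h-/- Tau- and 234, 299, 173 and 304 CPM in Ch25h-/- Tau+ libraries. The groups did not overlap, but the lowest Tau- and the highest Tau+ library were nearly equal. Replicates 3 and 4 of Ch25h-/- Tau- also had the smallest shares of the largest CA1 cluster, at 41.4 and 51.1% of CA1 nuclei. The part of cluster shares in the Pcdh15 values was not tested. The log2 fold change was -1.02 (SE 0.29, adjusted p = 0.186, edgeR; adjusted p = 0.0150, DESeq2), so edgeR made no call.

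The Pcdh7 call was also lost when any 1 of 8 libraries was left out. These were all 4 of Ch25h-/- Tau+ (adjusted p 0.0514 to 0.144), replicates 3 and 4 of Ch25h-/- Tau- (0.153 and 0.111), Ch25h+/+ Tau- replicate 4 (0.0516) and Ch25h+/+ Tau+ replicate 2 (0.0606). Over all 16 omissions the log2 fold change stayed between -0.92 and -0.74. With replicates 1 and 2 alone it was -0.74 (adjusted p = 0.719) and with replicates 3 and 4 alone -0.89 (adjusted p = 0.00330).

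**Figure D3:**
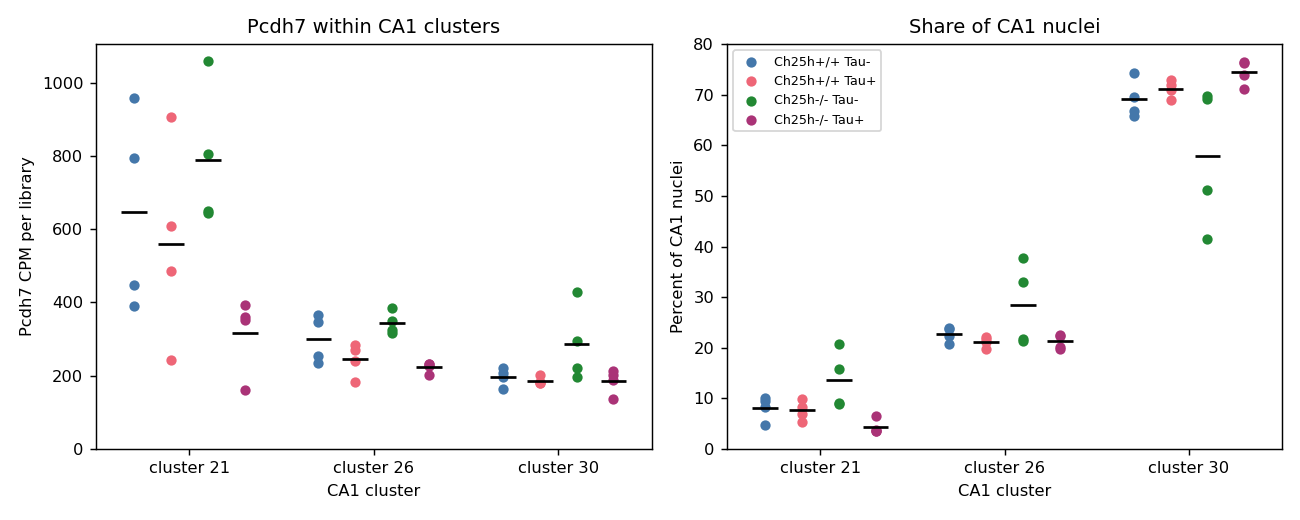
Left, Pcdh7 CPM within each of the 3 CA1 clusters by library. Right, the percent of CA1 nuclei in each cluster. Points are libraries in their group's colour and bars are means of 4. In cluster 30, the largest, Ch25h-/- Tau- libraries spread from 197 to 428 CPM and from 41.4 to 69.7% of nuclei.

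Pcdh11x (ENSMUSG00000034755, chromosome X, 120290259 to 120910619) was lower in OPCs of Ch25h-/- Tau+ mice. Its levels were 966, 938, 767 and 844 CPM in Ch25h-/- Tau- and 642, 605, 732 and 553 CPM in Ch25h-/- Tau+ libraries. No Tau+ library reached the lowest Tau- library. The log2 fold change was -0.48 (SE 0.097, adjusted p = 0.0280, edgeR). In Ch25h+/+ mice the levels were 698, 932, 843 and 803 without and 725, 647, 767 and 706 CPM with tau, and the groups overlapped. The test of the difference between the tau effects gave log2 -0.24 (SE 0.14, adjusted p = 0.9996, edgeR), so they are not shown to differ. The 9 OPC markers summed to 13518 to 15509 CPM in Ch25h-/- Tau- and 14355 to 15539 CPM in Ch25h-/- Tau+, and the 12 oligodendrocyte markers to 144 to 221 and 199.98 to 223 CPM, none of them at 0 in all libraries. Their part in the result was not tested. The call was lost without replicate 1 (adjusted p = 0.218), 2 (0.215) or 4 (0.0655) of Ch25h-/- Tau-, and without replicate 1 (0.0768), 2 (0.183) or 4 (0.237) of Ch25h-/- Tau+. The log2 fold change stayed between -0.56 and -0.43. It was -0.63 with replicates 1 and 2 alone (adjusted p = 0.00203, background in that fit 0.401%) and -0.32 with replicates 3 and 4 alone (adjusted p = 0.995).

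**Figure D4:**
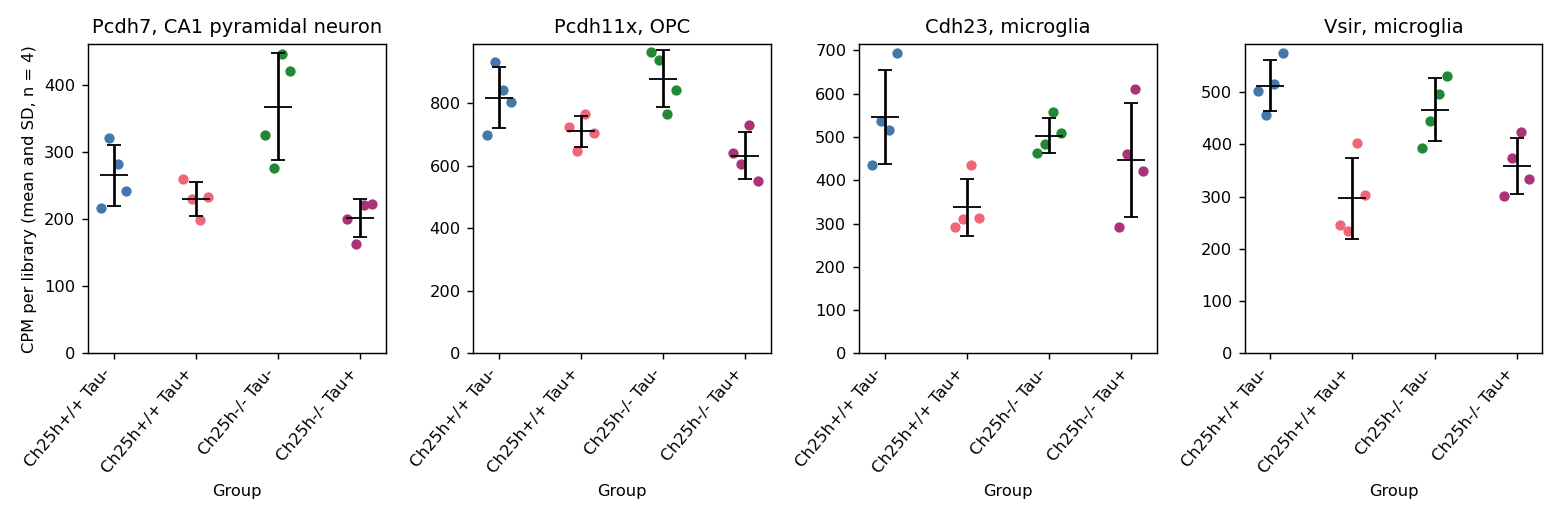
CPM (y axes, linear from 0) of Pcdh7 in CA1 neurons, Pcdh11x in OPCs, and Cdh23 and Vsir in microglia, by group. Points are libraries, with the mean and SD of 4. Pcdh7 and Pcdh11x separate the 2 Ch25h-/- groups, and the Cdh23 and Vsir panels have the same order of group means.

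Cdh23 in microglia came nearest to a call in Ch25h+/+ mice. It read 435, 537, 516 and 694 CPM in Ch25h+/+ Tau- and 293, 310.0, 435 and 312 CPM in Ch25h+/+ Tau+ libraries, from 174 to 304 UMIs each. The highest Tau+ library and the lowest Tau- library were nearly equal. The log2 fold change was -0.72 (SE 0.19, adjusted p = 0.0518, edgeR). It was called by DESeq2 (adjusted p = 0.0223, background in that fit 0.376%) and without the low-count filter (1.08e-04, background 0.281%). It was also called with the replicate split as a covariate (0.00669, background 0.521%) and with replicates 1 and 2 alone (0.0458, background 0.477%). The same held without Ch25h+/+ Tau+ replicate 3 (0.00975, background 0.529%). So it did without Ch25h-/- Tau+ replicate 1 (0.0177, background 0.22%) or Ch25h-/- Tau+ replicate 3 (0.0151, background 0.319%). Each of these backgrounds was above the 0.204% of the main fit. In the other 17 of 24 alternatives no member was called for this contrast. Cdh23 was thus not called with doublets kept, with nuclei of 1000 or more UMIs or with the remaining replicates alone. Vsir, which overlaps it, was lower in the same contrast, with a log2 fold change of -0.83 (SE 0.16, adjusted p = 0.0117, edgeR), at 512 ± 48.7 without and 296 ± 77.02 CPM with tau. Microglia markers, 13 in all, summed to 14131 to 16278 CPM in Ch25h+/+ Tau- and to 11509 to 14723 CPM in Ch25h+/+ Tau+ libraries. The 6 markers of border-associated macrophages summed to 141 to 1320 and to 285 to 840.3 CPM there, none at 0. Their part in the result was not tested.

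Pcdh9 had the lowest p of the members in oligodendrocytes and in astrocytes for tau in Ch25h-/- mice. In oligodendrocytes it read 12913 ± 2435 CPM without and 8846 ± 769.8 with tau (n = 4), a log2 fold change of -0.52 (SE 0.12, adjusted p = 0.248, edgeR), and in astrocytes the change was -0.33 (SE 0.092, adjusted p = 0.181). The oligodendrocyte value for the interaction was -0.62 (SE 0.17, adjusted p = 0.9996). In CA3 neurons the lowest p was that of Pcdh19, a delta-2 protocadherin. It read 54.3, 59.8, 69.5 and 60.2 CPM in Ch25h-/- Tau- and 38.5, 36.0, 49.2 and 48.9 CPM in Ch25h-/- Tau+ libraries, and the groups did not overlap. The log2 fold change was -0.44 (SE 0.14, adjusted p = 0.210, edgeR), and with the replicate split as a covariate it was -0.45 and called (SE 0.089, adjusted p = 0.0285, edgeR; background in that fit 0.456%). The clusters of the CA3 class also differed in share between these groups, pooled over libraries. The largest was 62.5% of the class in Ch25h-/- Tau- and 67.29% in Ch25h-/- Tau+. Those led by Csf2rb2, Vgll3 and Lrp2 were 7.45, 23.24 and 6.81% in the first group and 3.80, 17.55 and 11.35% in the second. Their part in the Pcdh19 values was not tested. In DG neurons the lowest p was that of Cdh4, at -0.96 (SE 0.25, adjusted p = 0.209, edgeR). Cdh4 read 9.34 ± 2.08 CPM without and 4.78 ± 0.947 with tau. In the same contrast the lowest p in other excitatory neurons was that of Pcdh15, at -0.36 (SE 0.11, adjusted p = 0.738), in inhibitory neurons that of Pcdh18, at 0.63 (SE 0.24, adjusted p = 0.828), and in microglia that of Cdh9, at -1.19 (SE 0.40, adjusted p = 0.175). Free RNA could account for all Cdh9 UMIs in microglia, and its part in that value was not tested.

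Member log2 fold changes for tau in Ch25h-/- mice had medians of -0.066 in DG, -0.00016 in CA1, -0.063 in CA3, 0.024 in other excitatory and 0.017 in inhibitory neurons, -0.087 in astrocytes, -0.055 in oligodendrocytes and -0.039 in OPCs. The medians over all tested genes lay between -0.0072 and 0.0046 in the 9 classes. The 9 members tested in microglia had medians of -0.42 in Ch25h+/+ and -0.35 in Ch25h-/- mice, where the genes that passed the filter were few. Free RNA could account for all UMIs of 6 of the 9 there (Pcdh7, Pcdh9, Pcdh15, Cdh2, Cdh9 and Cdh10), for 93.9% of Cdh11 and 94.6% of Pcdh10, and for 0.410% of Cdh23, and its part in the medians was not tested. Over all 461 member-by-class tests that share was above 50% in 40, and its median was 8.28%. In Ch25h+/+ mice the lowest p belonged to Cdh23 in DG neurons (log2 -1.36, SE 0.37), Pcdhb8 in CA1 (-1.54, SE 0.42), Pcdhga8 in CA3 (-0.86, SE 0.38), Pcdhga1 in other excitatory neurons (0.66, SE 0.25) and Pcdhb14 in inhibitory neurons (0.45, SE 0.18). In glia of the same mice it belonged to Pcdhb21 in astrocytes (1.33, SE 0.42), Pcdh7 in oligodendrocytes (0.57, SE 0.21) and Cdh18 in OPCs (0.24, SE 0.098). None of these 8 was called, with adjusted p from 0.171 to 0.99985 by edgeR. Cdh18 in astrocytes read 31.6 ± 16.3 CPM with and 14.03 ± 2.55 without tau (log2 1.11, SE 0.36, adjusted p = 0.200, edgeR). It was called without Ch25h+/+ Tau+ replicate 3 (log2 1.33, adjusted p = 0.0385) and with replicates 1 and 2 alone (log2 1.40, adjusted p = 0.0119). Free RNA could account for 68.2% of Cdh18 UMIs in astrocytes, and its part in these values was not tested.

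**Figure D5:**
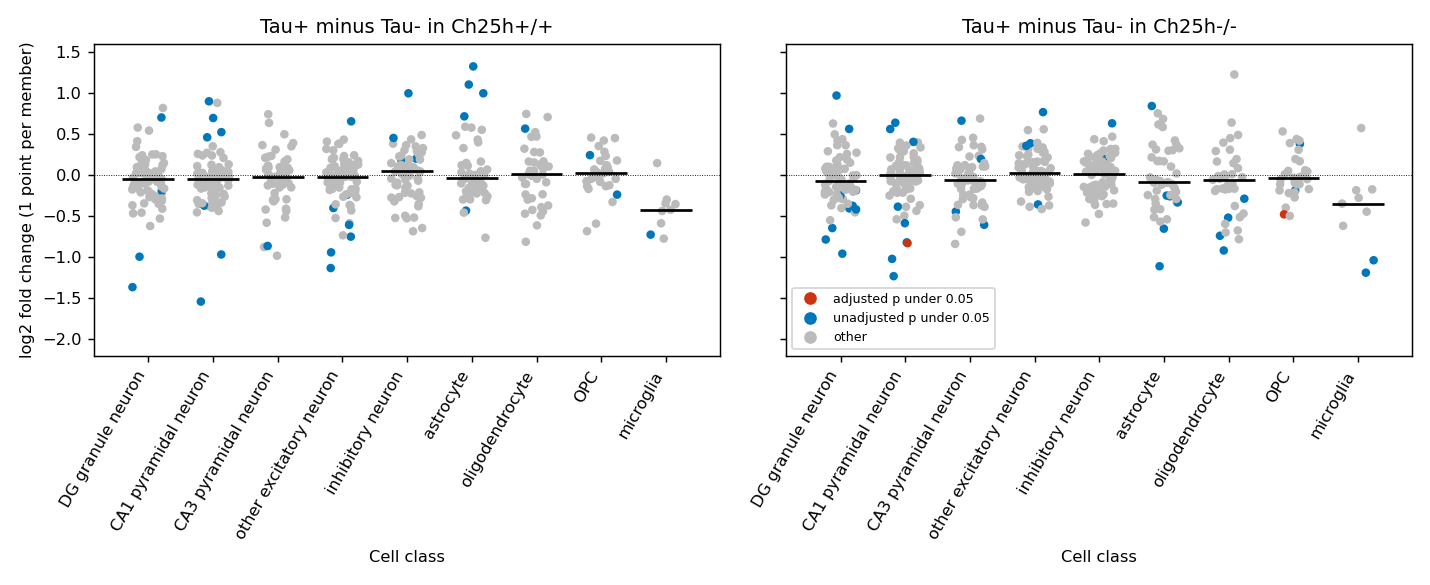
Log2 fold change of each tested member for Tau+ against Tau- in Ch25h+/+ (left) and Ch25h-/- mice (right), by class. Each point is 1 member and the bar is their median. The 2 red points on the right, in CA1 neurons and OPCs, are the 2 calls.

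The second comparison asked what Ch25h loss changed. No member was called for libraries labelled Ch25h-/- against Ch25h+/+, in Tau+ (background 0.00673%) or in Tau- (background 0.00336%), and DESeq2 called none in either (background by DESeq2 0.0168% in Tau+ and 0.0101% in Tau-). At an unadjusted p under 0.05, 23 of 461 (4.99%, background 3.46%) passed in Tau+, 12 higher and 11 lower. In Tau- 13 of 461 (2.82%, background 3.37%) passed, all 13 of them higher in Ch25h-/-, while over all genes 1988 were higher and 2014 lower. Those 13 tests cover CA1, DG, inhibitory, other excitatory neurons, astrocytes and oligodendrocytes. Pcdh7 in CA1 was among them, at log2 0.43 (SE 0.14, adjusted p = 0.999), as were Pcdh15 in oligodendrocytes at 0.45 (SE 0.13, adjusted p = 0.99999), Cdh11 in inhibitory neurons at 0.19 (SE 0.061), Cdh20 in DG neurons at 0.60 (SE 0.23; free RNA could account for 75.8% of its UMIs there) and Pcdhb21 in astrocytes at 1.30 (SE 0.43). Pcdh15 was also the member with the lowest p in other excitatory neurons (0.26, SE 0.11), as were Pcdhac2 in CA3 (0.78, SE 0.37), Cdh10 in OPCs (0.19, SE 0.10) and Cdh11 in microglia (-0.78, SE 0.46; free RNA share 93.9%). In Tau+ the lowest p belonged to Cdh23 in CA3 neurons (0.77, SE 0.22) and in microglia (0.43, SE 0.18), Pcdh9 in oligodendrocytes (-0.39, SE 0.12), Pcdh17 in DG neurons (-0.43, SE 0.16) and Cdh13 in inhibitory neurons (0.24, SE 0.095). In the other 4 classes it was that of Cdh4 in CA1 (0.37, SE 0.17), Pcdhgc3 in other excitatory neurons (1.12, SE 0.44), Cdh8 in astrocytes (0.60, SE 0.25; free RNA could account for all of its UMIs there) and Pcdh19 in OPCs (-0.67, SE 0.27). The comparisons share control groups, so these signs are not independent of those for tau. The interaction gave no call (background 0.0%; DESeq2 none), with 23 of 461 (4.99%, background 4.14%) at the unadjusted p. Its lowest p values belonged to Pcdh9 in DG neurons (-0.38, SE 0.14), astrocytes (-0.35, SE 0.13) and oligodendrocytes, Cdh23 in CA3 neurons (0.79, SE 0.32) and microglia (0.54, SE 0.26), Pcdh7 in CA1, Pcdha5 in other excitatory neurons (0.51, SE 0.25), Pcdhb14 in inhibitory neurons (-0.64, SE 0.25) and Cdh18 in OPCs (-0.34, SE 0.14).

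The catenins, FAT and dachsous cadherins, calsyntenins and other genes of cadherin adhesion (46 genes, listed with earlier results of these data known) gave 347 tests per contrast. For tau in Ch25h+/+ mice 3 were called, all higher in Tau+ (0.865%, background 0.204%). They were Pkp4, a catenin-like plaque protein, and Ctnnal1, an alpha-catenin-like protein, in astrocytes, and Fat3, a giant FAT cadherin, in microglia. That background pools the 9 classes, and the shares called in astrocytes and in microglia alone are not given here. Leaving out any 1 library moved that background between 0.0291 and 0.529%. No alternative fit is reported for these 3 genes. Pkp4 rose from 77.7 ± 16.3 to 140.9 ± 17.3 CPM (log2 0.80, SE 0.15, adjusted p = 0.0178, edgeR). Ctnnal1 rose from 69.5 ± 9.23 to 110.4 ± 19.0 CPM (log2 0.61, SE 0.13, adjusted p = 0.0385), and Fat3 from 339.5 ± 54.2 to 498 ± 81.6 CPM (log2 0.53, SE 0.14, adjusted p = 0.0469). By the median free-RNA rate of each class, free RNA could account for 20.6% of Pkp4 and 5.68% of Ctnnal1 UMIs in astrocytes. For Fat3 in microglia that share was 4.64%. The astrocyte rate was 13.5% of UMIs with quartiles of 6.12 and 44.7%, so the astrocyte shares are rough. None of the 46 was called by edgeR in the other 4 contrasts, where the background was 0.108% for tau in Ch25h-/- mice, 0.00673% and 0.00336% for Ch25h loss in Tau+ and Tau-, and 0.0% for the interaction. In Ch25h-/- mice 15 tests were higher and 27 lower in Tau+ at an unadjusted p under 0.05 (12.1%, background 8.21%, with 4964 higher and 4801 lower over all genes). The lowest adjusted p there was 0.0697 for Ctnna3, an alpha-catenin, in CA3 neurons (log2 -1.06, SE 0.21, edgeR), where free RNA could account for 47.8% of its UMIs. At that unadjusted p, 28 of 347 tests passed for tau in Ch25h+/+ mice (8.07%, background 6.58%), 16 higher and 12 lower. For Ch25h loss 11 passed in Tau+ (3.17%, background 3.46%) and 12 in Tau- (3.46%, background 3.37%), and for the interaction 16 (4.61%, background 4.14%).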

How the data were processed

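Nuclear RNA was measured in 16 hippocampus libraries. The authors deposited raw UMI counts per gene and barcode, unfiltered; per the submitters' processing notes, reads were processed with Cell Ranger 3.1.0 against mm10, while the matrix headers name Cell Ranger 4 software. Gene positions come from the mm10 (GRCm38) annotation. Barcodes with at least 500 UMIs, at least 300 genes and at most 5% mitochondrial UMIs were kept. A doublet score marked 11045 barcodes, which were left out of the classes. Nuclei were clustered with scanpy 1.11.5 (3000 variable genes without any gene of the family, 50 principal components, Leiden resolution 1), giving 55 clusters. A cluster was named where at least 3 listed markers were 2-fold up and its leading genes did not go against them, and 23 stayed unnamed. Some differences between classes may come from these rebuilt names.

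UMI counts were summed per library and class and tested with edgeR 4.0.16 (filterByExpr, TMM, quasi-likelihood test, all 4 groups in 1 fit per class, R 4.3.3), with Benjamini-Hochberg adjustment over all genes of a class and contrast. DESeq2 1.42.0, other filters, other nuclei and left-out libraries were alternatives. The fit was also run on counts simulated from the astrocyte class as a check of the code, with no outcome given here. Free RNA was estimated from the profile of barcodes under 100 UMIs. Its rate was 1 value per class over all libraries, the median over markers of other classes. Quartiles over those markers were wide in some classes, at 1.53 and 32.7% in CA3 neurons (median 5.76%), and narrower in microglia, at 7.68 and 14.1% (median 9.76%). Free-RNA shares of single genes rest on the median rate and are rough. The labels give each library a title of its own but do not say that each came from a separate mouse, so p-values measure the spread between these samples. Replicates were numbered in accession order, as names only. Genes were named by rule: those called, the 3 with most UMIs in each role group, the 2 most enriched in each class, those next to the UMI minimum, and that with the lowest p in each class and contrast. The members and lists were chosen with earlier results of these data known.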

Additional observations from a re-analysis of the deposited data

Results flagged for a closer look

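In 5 of 108 groups of 4 libraries looked at, 1 library stood far from the other 3 by Dixon's criterion, and chance alone flags about 1 in 20 groups. Cdh12 in other excitatory neurons read 456 CPM in Ch25h-/- Tau- replicate 4 and 686 to 729.9 CPM in the other 3. Cdh23 in microglia read 435 CPM in Ch25h+/+ Tau+ replicate 3 and 293 to 312 CPM in the others. Pcdh10 in astrocytes read 238 CPM in Ch25h-/- Tau- replicate 4 against 208 to 211 CPM. Pcdha5 in other excitatory neurons read 7.10 CPM in Ch25h+/+ Tau- replicate 3 against 5.47 to 5.73 CPM. Pcdhb14 in astrocytes read 35.5 CPM in Ch25h+/+ Tau- replicate 1 against 15.9 to 18.6 CPM.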

How the results depend on the processing

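The count of members called for tau in Ch25h+/+ mice, 0 by edgeR, was 1 by DESeq2 (background over all genes in that fit 0.376%), 1 with no filter on low counts (0.281%), 1 with the split of replicates as a covariate (0.521%), 2 with replicates 1 and 2 only (0.477%), and 0 to 2 on leaving out any 1 library (0.0291 to 0.529%). For tau in Ch25h-/- mice, 2 by edgeR, it was 4 by DESeq2 (0.62%), 3 with the split of replicates as a covariate (Pcdh19 in CA3 beside the 2; 0.456%), 1 with doublets kept (0.101%), 6 with replicates 1 and 2 only, 2 with replicates 3 and 4 only, 0 to 2 on leaving out any 1 library (0.0322 to 0.388%), and 1 with only the largest CA1 cluster (0.0968%), an alternative chosen after seeing the data. The 6 were Pcdh15 in CA3, Pcdh19 in DG, Pcdh11x and Pcdh9 in OPCs, Pcdh11x in astrocytes and Pcdh9 in oligodendrocytes, of 459 member tests (1.31%, background 0.401%). Replicates 3 and 4 gave Pcdh7 and Cdh13 in CA1 (background 0.307%), Cdh13 at log2 -0.69 (SE 0.13, adjusted p = 0.0242, edgeR) against -0.49 (SE 0.30, adjusted p = 0.590) with all libraries. For Ch25h loss, 0 by edgeR in both, it was 1 in Tau+ with replicates 1 and 2 only (Pcdh15 in CA3, background 0.00413%) and 1 in Tau- with replicates 3 and 4 only (Pcdh7 in CA1, background 0.0739%). The split of replicates used in some of these fits was seen in these same counts, and no label gives it. The cause of these changes was not tested. The interaction had 0 members called under each of 24 alternatives (background at most 0.0178%). No result turned its direction under any alternative run. Of 39 levels of named members in their highest class, 38 moved by less than 1 SD when free RNA was subtracted, and Pcdh1 in CA3 neurons moved to 48.2 CPM. All 39 stayed within 1 SD between libraries under the other 3 alternatives. Levels still moved by -4.58 to 49.1% with doublets kept and by -20.7 to 17.9% with nuclei of 1000 or more UMIs. No paired analysis was possible because the labels carry no replicate numbers: those used here follow accession order and only name libraries, and the split of replicates is no pairing. The 6 small classes had too few nuclei in some libraries for a test. Depth differs by class: in microglia, at 9532717 UMIs, 9 members passed the filter on low counts, against 30 in OPCs at 11616585 UMIs, and the cause was not tested.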
